A study of Mus musculus with 29 samples.

Results

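Chromatin accessibility was compared between mouse rods and photoreceptors that lack *Nrl*, which stand in for blue cones, the cones that express the short-wavelength opsin *Opn1sw*. Accessibility was measured by ATAC-seq, in which a transposase inserts sequencing adapters where DNA is not packed by nucleosomes. The comparison used 2 rod libraries and 2 blue cone libraries out of 29 samples in the series, and all 110715 regions of 200 bp that were counted in it, each centred on the summit of a peak found in any population. Both groups were sorted once by GFP from retinas at postnatal day 56 and were taken by the authors from their previous work. The rods carried the transgene Nrl-eGFP, and the blue cones carried Nrl-eGFP together with the *Nrl* knockout (genotype Nrl-eGFP;NrlKO). The *Nrl* promoter drives the eGFP of both groups and marks rods in the first genotype and photoreceptors of the mutant retina in the second. Blue cones here are therefore cells of a mutant retina, and genotype and cell type cannot be told apart. The 2 libraries of green cones (Opn1mw-GFP, day 56, sorted once) and the 6 libraries of bipolar cells entered the same model and are cited only beside the rod and blue cone values. The bipolar cells came from younger mice (postnatal days 42 to 46) that carried Otx2-GFP, with Grm6-YFP added where ON and OFF bipolar cells were separated. OFF bipolar cells were sorted a second time.

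Rods serve vision in dim light and cones serve vision in bright light, and each class builds its own version of the phototransduction cascade. *Nrl*, a bZIP transcription factor of the MAF family, directs a photoreceptor precursor to the rod fate, in part through the nuclear receptor *Nr2e3*, which represses cone genes. *Crx*, a homeodomain factor of both classes, binds sites with the core TAATCC, called K50 sites after the lysine at residue 50 of the homeodomain, while many homeodomain factors of other neurons prefer TAATTA (Q50 sites). Nuclear receptors of photoreceptors such as *Esrrb*, *Nr2e3*, *Rorb* and *Thrb* bind versions of the half-site AGGTCA, and factors of the MAF family bind the half-site TGCTGAC.

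A total of 1587 regions were more accessible in rods and 9284 in blue cones, out of 108448 that had enough reads to be tested (1.46% and 8.56%). Values are read counts of a region divided by the size factor of the library (normalized counts), and a region was called when limma found a log2 fold change (rods minus blue cones) beyond 1 in either direction at a false discovery rate of 0.05. In the regions called higher in rods the median normalized count was 112 and 119 in the 2 libraries of rods, compared with 11.7 and 13 in those of blue cones. In those called higher in blue cones the medians were 31.1 and 33.2 in blue cones against 1.56 and 1.36 in rods. The split between directions turned with the centring: when each library was centred within bins of GC content, which also removed the median of each library, 6425 regions were higher in rods and 5014 in blue cones. The regions higher in rods were strongly open in rods and kept some signal in blue cones, whereas those higher in blue cones were of moderate height there and close to empty in rods. No read was counted in either rod library at 1696 of the 9284 regions (18.3%), and none in either blue cone library at 73 of the 1587 (4.60%). The rod libraries were the deeper ones, with 9665199 and 10890548 counted reads against 4572550 and 8058443, and yet reads were found in fewer regions (85855 and 89764 against 97040 and 97118).

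**Figure D1:**
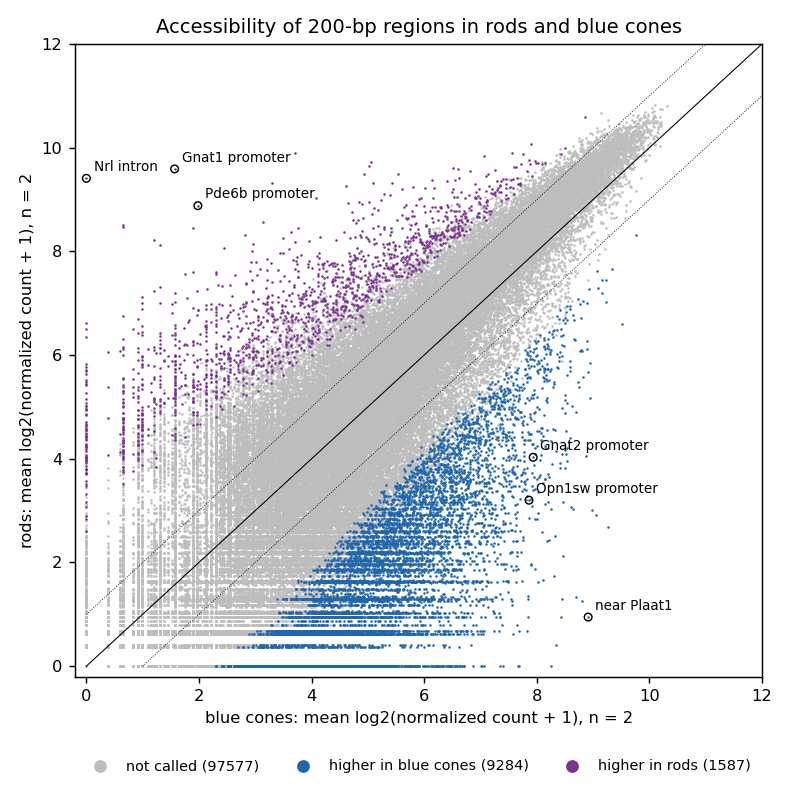
Mean log2(normalized count + 1) of the 108448 tested regions in rods (vertical, n = 2) and blue cones (horizontal, n = 2). The solid line marks equal values and the dotted lines a log2 difference of 1. The 1587 regions higher in rods (purple) reach high rod values, while many of the 9284 higher in blue cones (blue) lie at or near 0 in rods.

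In bulk samples, fewer cells with an open region and less accessibility per cell cannot be told apart. Pearson's r of the log2 values across regions was 0.96 between the 2 rod libraries, 0.92 between the 2 blue cone libraries and 0.80 to 0.82 between a rod and a blue cone library. Each call rests on the spread estimated over all 12 libraries of 6 populations. With the 4 rod and blue cone libraries alone, which leave 2 residual degrees of freedom, limma called 0 regions, although 19873 had an unadjusted p below 0.05. Counts by edgeR and DESeq2 on the same reads with all 12 libraries were 3529 and 1347 higher in rods and 15583 and 6872 higher in blue cones. Without 1 library, regions higher in rods numbered 635 (without rod replicate 1), 653 (without rod replicate 2) and 903 (without blue cone replicate 1), and regions higher in blue cones fell to 6188 without blue cone replicate 1. The labels do not say whether 2 libraries of a group came from separate animals, so p-values measure the spread between these libraries, which may be technical.

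Peaks that the authors called in single libraries, from the same reads, were compared with these calls. Of the 37954 peaks of the first rod library 93.7% overlapped a peak of the second, 71.7% a peak of the first blue cone library and 82.8% a peak of the second. Of the 9284 regions higher in blue cones, 8315 (89.6%) overlapped a peak in neither rod library and 5767 (62.1%) a peak in both blue cone libraries. Of the 1587 regions higher in rods, 1453 (91.6%) overlapped a peak in both rod libraries and 898 (56.6%) a peak in neither blue cone library. The last share was near that of regions not called, of which 51.8% overlapped a peak in neither blue cone library and 52.8% in neither rod library. Of the regions not called, 38.9% overlapped a peak in both rod libraries and 34.6% in both blue cone libraries. Without a peak in any of the 4 libraries were 1626 of the regions higher in blue cones (17.5%), 32 of those higher in rods (2.02%) and 42153 of those not called (43.2%).

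The sequences of 7 regions that carry the comparison are shown. They are the promoters of *Gnat1* and *Pde6b*, the promoters of the cone genes *Opn1sw* and *Gnat2*, and 3 regions more than 1000 bp from a transcription start site (TSS). Among regions of this kind, the *Kcnj14* intron had the largest change to rods outside *Nrl*, and the other 2 had the largest changes to blue cones. All are read 5′ to 3′ on the forward strand of GRCm38/mm10, and capitals mark matches on either strand to the K50 core TAATCC, the Q50 cores TAATTA and TAATTG, the nuclear receptor half-site AGGTCA and the MAF half-site TGCTGAC.
Gnat1 promoter, chr9:107679610-107679809: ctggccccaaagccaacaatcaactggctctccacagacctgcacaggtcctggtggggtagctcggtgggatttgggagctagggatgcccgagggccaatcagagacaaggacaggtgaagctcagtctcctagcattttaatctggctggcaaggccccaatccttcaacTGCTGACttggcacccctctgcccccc
Pde6b promoter, chr5:108388274-108388473: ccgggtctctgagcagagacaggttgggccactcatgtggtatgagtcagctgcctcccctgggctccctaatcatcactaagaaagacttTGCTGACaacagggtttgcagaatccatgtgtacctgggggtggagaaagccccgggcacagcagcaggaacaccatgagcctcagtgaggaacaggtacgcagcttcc
Kcnj14 intron, chr7:45823321-45823520: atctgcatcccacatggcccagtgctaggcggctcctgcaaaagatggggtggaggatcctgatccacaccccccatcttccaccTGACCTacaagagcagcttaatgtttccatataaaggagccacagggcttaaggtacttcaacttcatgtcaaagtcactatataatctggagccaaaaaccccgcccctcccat
Opn1sw promoter, chr6:29380473-29380672: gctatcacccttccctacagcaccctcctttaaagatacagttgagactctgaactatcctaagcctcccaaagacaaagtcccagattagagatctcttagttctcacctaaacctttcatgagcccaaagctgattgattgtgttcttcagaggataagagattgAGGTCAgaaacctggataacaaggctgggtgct
Gnat2 promoter, chr3:108092631-108092830: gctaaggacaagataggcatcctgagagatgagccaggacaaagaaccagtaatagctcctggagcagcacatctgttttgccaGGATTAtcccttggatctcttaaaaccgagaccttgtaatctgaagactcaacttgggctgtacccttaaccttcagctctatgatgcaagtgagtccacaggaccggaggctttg
Prickle2 intron, chr6:92525811-92526010: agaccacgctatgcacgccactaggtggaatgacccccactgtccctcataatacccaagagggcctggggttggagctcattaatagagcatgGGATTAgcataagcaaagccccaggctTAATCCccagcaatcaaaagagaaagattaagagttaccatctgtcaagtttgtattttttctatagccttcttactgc
Upstream of Plaat1, chr16:29194097-29194296: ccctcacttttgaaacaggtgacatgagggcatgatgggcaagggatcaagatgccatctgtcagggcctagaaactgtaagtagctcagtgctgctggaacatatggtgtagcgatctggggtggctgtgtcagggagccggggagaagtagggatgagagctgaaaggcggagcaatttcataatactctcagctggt
The *Gnat1* and *Pde6b* promoters hold 1 match each to TGCTGAC, the *Kcnj14* intron and the *Opn1sw* promoter 1 each to AGGTCA, and the *Gnat2* promoter 1 to TAATCC. The *Prickle2* intron holds 2 matches to TAATCC, and the region upstream of *Plaat1* holds none of the 5 motifs.

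The targeted gene was examined first. Within *Nrl*, on the reverse strand of chromosome 14, 3 regions held no read in either *Nrl* knockout library. They lie in the non-coding part of an exon (chr14:55518981-55519180), in a coding exon (chr14:55520631-55520830) and in an intron (chr14:55521175-55521374). The intronic region had normalized counts of 674 and 682 in rods, compared with 0 and 0 in blue cones, at least 488-fold higher in rods when the blue cone group is set to a floor of 3 reads. Sequence removed by the knockout would give no reads whatever its accessibility. Which sequence was removed was not examined, so missing sequence and closed chromatin cannot be told apart at these 3 regions. At the promoter (chr14:55524921-55525120) the normalized count was 1645 and 1616 in rods, compared with 649 and 494 in blue cones. The difference was not called (log2 fold change 1.52 with a standard error of 0.36, adjusted p = 0.378). Reads at *Nrl* promoter sequence can come from the gene or from the promoter of the Nrl-eGFP transgene, which both groups carry. Expression of *Nrl* was 14181 ± 2574 in rods compared with 636 ± 141 in blue cones (normalized counts, SD, n = 3; log2 fold change 4.49 with a standard error of 0.22, adjusted p = 6.56e-10). Where in the gene the reads of the knockout fall cannot be read from a count per gene. Within 5 Mb of the *Nrl* TSS, 24 of 508 tested regions were higher in rods (4.72%) and 23 in blue cones (4.53%), against 1.45% and 8.58% in the rest of the genome. Whether chromosome sequence linked to the knockout allele takes part in these values was not tested.

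Most of the regions that differed lay outside promoters (89.3% of those higher in rods and 90.1% of those higher in blue cones), and so did 84.8% of all tested regions. A promoter region has its centre no more than 1000 bp before or 100 bp after a TSS, and all other regions are called TSS-distal. Of 16491 tested promoter regions 170 were higher in rods (1.03%) and 916 in blue cones (5.55%). Of 91957 TSS-distal regions 1417 were higher in rods (1.54%) and 8368 in blue cones (9.10%). The median log2 fold change was 0.35 over promoter regions and -0.34 over TSS-distal regions, beside -0.20 over all regions. Among those higher in rods 943 (59.4%) had their centre in an intron and 558 (35.2%) between genes, and among those higher in blue cones 4038 (43.5%) were intronic and 4691 (50.5%) intergenic, beside 46.1% and 45.8% of all tested regions. The median distance to the nearest TSS was 13701 bp for regions higher in rods and 37002.5 bp for regions higher in blue cones (19180 bp for regions not called). The share called higher in rods was 2.45% at 1000 to 10000 bp from a TSS and 0.674% beyond 100000 bp, while the share higher in blue cones was 6.79% and 13%.

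Genes of rod phototransduction and the outer segment, the stacked membranes that hold the photopigment, carried regions that were more accessible in rods. The list has 25 genes and also holds a few other rod genes. Of 210 tested regions assigned to them by nearest TSS, 52 were higher in rods (24.8%, against 1.46% of all regions) and 1 in blue cones (0.476%, against 8.56%). The median log2 fold change was 1.70 against -0.20 over all regions (1.71 and -0.23 with regions empty in 1 group set to the fold that a floor of 3 reads gives). The 52 regions belonged to 17 of the 25 genes. The promoter of *Gnat1*, the alpha subunit of rod transducin, had 792 and 748 in rods, compared with 2.59 and 1.45 in blue cones (log2 fold change 8.02 with a standard error of 0.54, adjusted p = 4.79e-08). The promoter of *Pde6b*, the beta subunit of the rod phosphodiesterase, had 491 and 451 in rods against 1.3 and 5.78 in blue cones (log2 fold change 6.90 with a standard error of 0.56, adjusted p = 5.13e-07). Both promoters were close to empty in blue cones. *Gnb1*, the beta subunit of rod transducin, had 617 and 663 in rods against 7.77 and 10.1 in blue cones at an intronic region 31167 bp from the TSS (chr4:155522429-155522628, log2 fold change 6.02 with a standard error of 0.63, adjusted p = 1.22e-05).

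At other rod genes the promoter was open in both photoreceptor types and was not called. *Reep6*, which encodes a membrane trafficking protein of rods, had 1132 and 1171 in rods against 545 and 541 in blue cones at its promoter (log2 fold change 1.08, not called) and 517 and 533 in rods against 20.7 and 12.3 in blue cones at an intronic region 1817 bp downstream (log2 fold change 4.95 with a standard error of 0.40, adjusted p = 1.2e-06). The promoter of *Sag*, the arrestin of rods, had 536 and 523 in rods against 332 and 288 in blue cones (log2 fold change 0.77, not called). The promoters of *Rom1* and *Prph2*, which shape the outer segment disc, had log2 fold changes of 1.55 and 1.38, and that of *Pde6g*, a subunit of the rod phosphodiesterase, 1.83. None of these 3 was called (adjusted p = 0.0799, 0.315 and 0.0638). Both rod libraries stood above both blue cone libraries at these 5 promoters. Such separation was common without a call: in the other direction, both blue cone libraries stood above both rod libraries at 29284 of the 97577 regions not called. Regions not called with both rod libraries above were not counted, and the median log2 fold change over all promoter regions was 0.35. Of the regions of *Sag* 1 of 8 was called higher in rods and of those of *Prph2* 3 of 11, all of them TSS-distal, while 0 of 2 were called at *Rom1* and 0 of 2 at *Pde6g*. Expression was not called at *Sag*, *Prph2* and *Pde6g* either (log2 fold change 0.77, 1.49 and 1.23). At *Reep6* and *Rom1* it was called higher in rods (log2 fold change 4.41 and 2.02). The promoters of *Cnga1*, a subunit of the rod cyclic nucleotide-gated channel (log2 fold change 3.54, adjusted p = 0.000442), and *Guca1b*, an activator of guanylate cyclase (log2 fold change 2.12, adjusted p = 0.00249), were called. The *Guca1b* call was lost with a correction for GC content (adjusted p = 0.0753). The 1 region of the list that was higher in blue cones lay 8084 bp upstream of *Samd7*, with 25.9 and 26.7 in blue cones against 1.56 and 2.71 in rods (log2 fold change -3.15 with a standard error of 0.41, adjusted p = 0.000791), and its call was lost with a pseudocount of 8 in place of 1 (adjusted p = 0.112) and with centring within GC bins (log2 fold change -1.69, adjusted p = 0.233).

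Of 172 regions of 14 rod transcription factor genes, 19 were higher in rods (11%, against 1.46% of all regions) and 8 in blue cones (4.65%, against 8.56%), with a median log2 fold change of 0.82. *Esrrb* and *Samd7* stand in both rod lists. The promoter of *Nr2e3* had 489 and 475 in rods, compared with 24.6 and 33.2 in blue cones (log2 fold change 4.03 with a standard error of 0.50, adjusted p = 0.000236). *Mef2c*, a MADS-box factor, had regions called in both directions. Its promoter region chr13:83573444-83573643 had 322 and 363 in rods against 51.8 and 65.0 in blue cones (log2 fold change 2.54, adjusted p = 0.00397, and 0.0548 without blue cone replicate 1), while an intronic region at chr13:83527941-83528140 had 86.8 and 83.1 in blue cones against 4.67 and 0 in rods (log2 fold change -5.17 with a standard error of 0.67, adjusted p = 0.000176). Thus 2 of the 22 tested regions of *Mef2c* were higher in rods and 2 in blue cones. *Esrrb*, an orphan nuclear receptor that sustains rods, had 6 of 26 regions higher in rods, among them none at its promoter (664 and 672 in rods against 201 and 249 in blue cones, log2 fold change 1.57, adjusted p = 0.0971). *Casz1*, a zinc finger factor, had 197 and 225 in rods against 18.1 and 21.7 in blue cones at an intronic region (log2 fold change 3.34 with a standard error of 0.46, adjusted p = 0.00117). At the promoter of *Crx*, which both photoreceptor types express, values were 561 and 527 in rods against 214 and 196 in blue cones (log2 fold change 1.40, not called). Of the 5 regions of *Crx* 2 were higher in rods. The larger change was at an intronic region, with 167 and 150 in rods against 20.7 and 26.0 in blue cones (log2 fold change 2.72 with a standard error of 0.56, adjusted p = 0.0348).

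**Figure D2:**
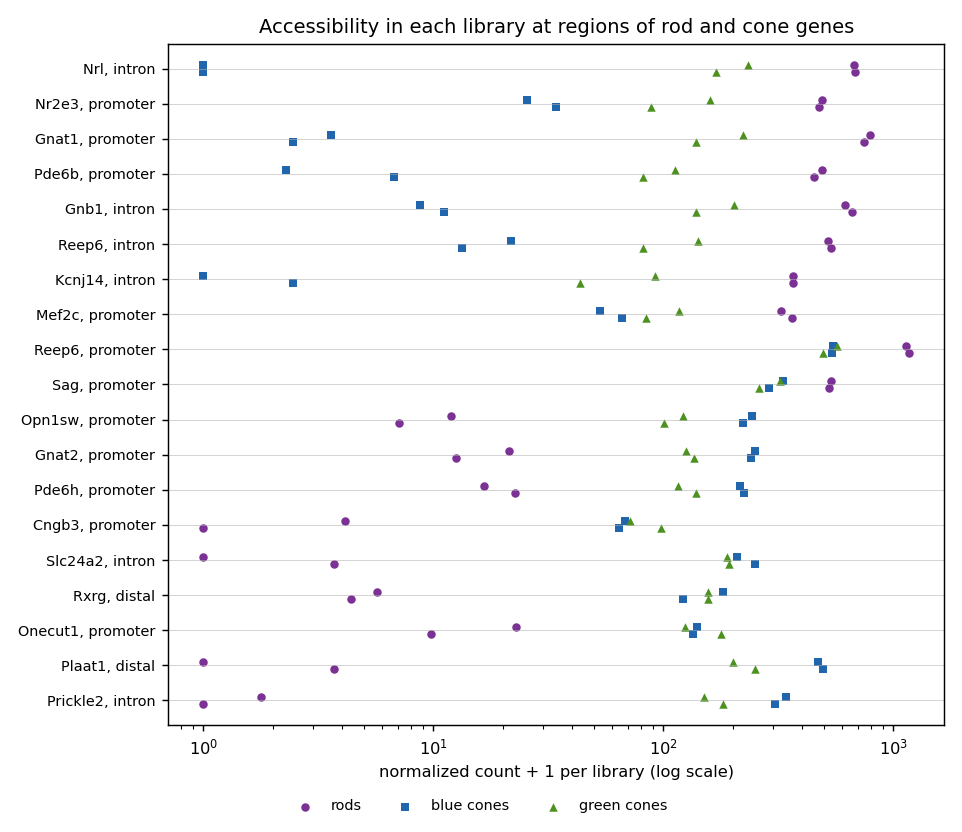
Normalized count + 1 (horizontal, log scale) in each of 2 rod (circles), 2 blue cone (squares) and 2 green cone (triangles) libraries at 19 regions of rod and cone genes. At the upper 8 regions the rod values lie above those of blue cones, most of all at the intron of the targeted gene Nrl. At the promoters of Reep6 and Sag the groups lie closer together, and at the lower 9 the blue cone values lie above those of rods.

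Cone genes showed the opposite direction. Of 165 regions assigned to 20 genes of a list of cone phototransduction and a few other cone genes, 43 were higher in blue cones (26.1%, against 8.56% of all regions). In rods 1 was higher (0.606%, against 1.46%), and the median log2 fold change was -1.39. The 43 regions belonged to 13 of the 20 genes. The promoter of *Opn1sw* had 10.9 and 6.1 in rods, compared with 242 and 221 in blue cones (log2 fold change -4.66 with a standard error of 0.44, adjusted p = 7.75e-06). A region 2161 bp upstream of *Opn1sw* had 64.8 and 45.5 in blue cones against 0 and 0 in rods, at least 50.7-fold higher in blue cones, and 6 of the 7 regions of this gene were called. The promoters of *Gnat2*, the alpha subunit of cone transducin (249 and 239 in blue cones against 20.2 and 11.5 in rods, log2 fold change -3.91 with a standard error of 0.34, adjusted p = 5.06e-06), and *Pde6h*, the inhibitory subunit of the cone phosphodiesterase (215 and 223 in blue cones against 15.6 and 21.7 in rods, log2 fold change -3.50 with a standard error of 0.39, adjusted p = 0.000132), were low but not empty in rods. The promoter of *Cngb3*, a subunit of the cone cyclic nucleotide-gated channel, had 67.3 and 62.9 in blue cones against 3.12 and 0 in rods (log2 fold change -5.03 with a standard error of 0.50, adjusted p = 1.06e-05). Rods and blue cones did not overlap at these promoters, which held for all 9284 regions called higher in blue cones. *Slc24a2*, the sodium, calcium and potassium exchanger of cones, had 12 of 18 regions higher in blue cones, the largest at chr4:87221640-87221839 in an intron (209 and 249 in blue cones against 0 and 2.71 in rods). *Ccdc136*, the neighbour of *Opn1sw*, had 298 and 310.0 in blue cones against 15.6 and 23.7 in rods at its promoter (log2 fold change -3.91 with a standard error of 0.22, adjusted p = 2.75e-08).

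Not every cone gene was closed in rods. The promoter of *Arr3*, cone arrestin, had 279.8 and 269.6 in blue cones against 123 and 119 in rods (log2 fold change -1.18, not called), although its expression was 991 ± 229 in rods compared with 84859 ± 11633 in blue cones (SD, n = 3; log2 fold change -6.43 with a standard error of 0.56, adjusted p = 4.1e-07). The medium-wavelength opsin *Opn1mw* had 32.4 and 31.1 in blue cones against 1.56 and 0 in rods at its promoter (log2 fold change -4.35 with a standard error of 0.85, adjusted p = 0.00811), a call lost without rod replicate 2 or either blue cone replicate (adjusted p up to 0.0944). The green cone libraries had 83.8 and 45.1 at the same region, above both blue cone libraries, and 121 and 100 at the *Opn1sw* promoter, below both. The 1 region of the list that was higher in rods lay 6210 bp downstream of the TSS of *Guca1a*, with 262 and 225 in rods against 47.9 and 57.8 in blue cones (log2 fold change 2.19 with a standard error of 0.39, adjusted p = 0.0368), a call lost without any 1 of the 4 libraries (adjusted p up to 0.489 over the alternatives).

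Of 313 regions of 20 cone transcription factors, 48 were higher in blue cones (15.3%, against 8.56% of all regions) and 4 in rods (1.28%, against 1.46%). Their median log2 fold change was -0.73. *Rxrg*, a retinoid X receptor of cones, had 8 of 13 regions higher in blue cones, the largest 14252 bp upstream of the TSS (180.0 and 121 in blue cones against 4.67 and 3.39 in rods, log2 fold change -4.90 with a standard error of 0.74, adjusted p = 0.000812). *Sall3*, a zinc finger factor of blue cones, had 97.1 and 92.5 in blue cones against 1.56 and 5.42 in rods at an intronic region (log2 fold change -4.56 with a standard error of 0.50, adjusted p = 4.62e-05). The promoters of *Onecut1* and *Onecut2*, factors of horizontal cells and early cones, had 139 and 133 in blue cones against 21.8 and 8.81 in rods (log2 fold change -3.19 with a standard error of 0.40, adjusted p = 0.000553) and 365 and 328 in blue cones against 25.7 and 36.6 in rods (log2 fold change -3.45 with a standard error of 0.21, adjusted p = 1.2e-07). *Thrb*, the thyroid hormone receptor of cones, had 4 of 55 regions higher in blue cones and 1 in rods. An intronic region of *Thrb* 72954 bp from the TSS had 77.7 and 83.1 in blue cones against 4.67 and 1.36 in rods (log2 fold change -4.48 with a standard error of 0.60, adjusted p = 0.000354), while its most accessible promoter had 655 and 609 in rods against 483 and 380.1 in blue cones (log2 fold change 0.56, not called, and of the opposite sign with a correction for GC content). *Rora* had 13 of 35 regions higher in blue cones and *Rorb* 6 of 36, and neither had a region higher in rods.

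**Figure D3:**
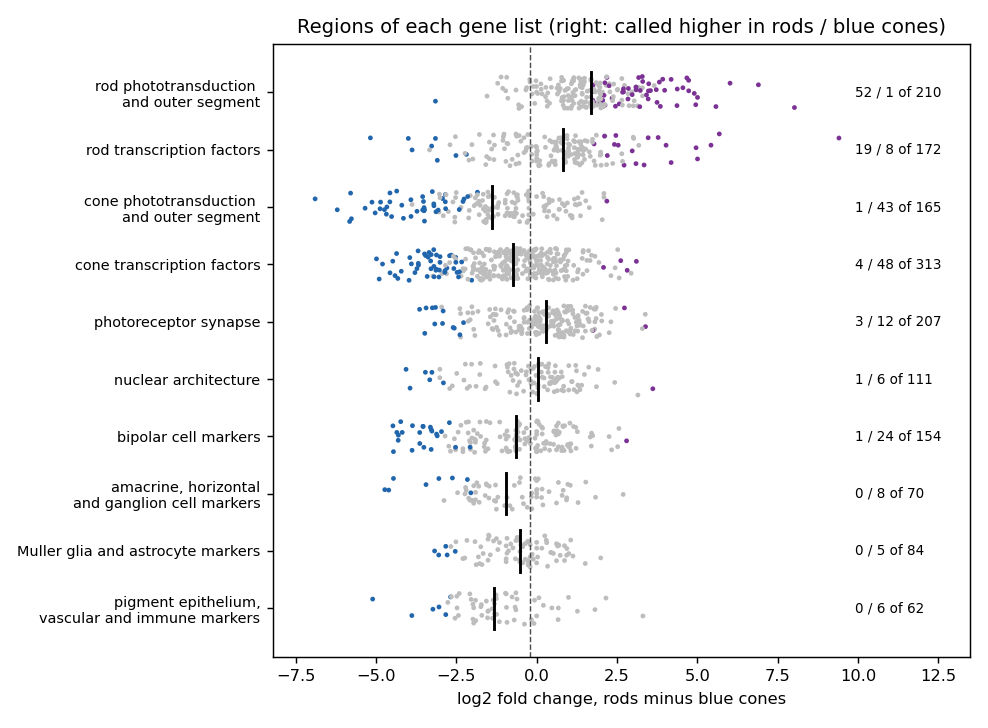
Log2 fold change (rods minus blue cones) of every tested region assigned to the genes of 10 lists. Purple and blue points were called, black bars are list medians, the dashed line is the median of all regions (-0.20), and the numbers at the right give regions higher in rods, regions higher in blue cones and all regions of the list. The rod phototransduction list lies to the right (median 1.70) and the cone phototransduction list to the left (-1.39).

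Lists of shared or other functions lay nearer to the background. Of 207 regions of 18 photoreceptor synapse genes, 3 were higher in rods (1.45%, against 1.46% of all regions) and 12 in blue cones (5.8%, against 8.56%). Their median log2 fold change was 0.30. Of 111 regions of 16 genes of nuclear architecture, 1 was higher in rods (0.901%) and 6 in blue cones (5.41%). The 1 higher in rods lay 169480 bp downstream of a TSS of the cohesin subunit gene *Stag2* (146 and 115 in rods against 11.7 and 7.95 in blue cones). *Lmna*, which encodes the A-type lamins, had 88.1 and 103 in blue cones against 3.12 and 17.6 in rods at a promoter (log2 fold change -3.46 with a standard error of 0.45, adjusted p = 0.000605) and 166 and 199 in blue cones against 11.7 and 10.2 in rods at a region 6732 bp upstream (log2 fold change -3.94 with a standard error of 0.26, adjusted p = 1.84e-07).

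Markers of other retinal cells were also examined. Of 154 regions of 16 bipolar cell marker genes, 24 were higher in blue cones (15.6%, against 8.56% of all regions) and 1 in rods (median log2 fold change -0.64, or -0.89 with the bounds for empty groups). The called regions included the promoter of the LIM homeobox gene *Lhx4* (124 and 137 in blue cones against 5.45 and 5.42 in rods, log2 fold change -4.35 with a standard error of 0.27, adjusted p = 9.46e-08) and an intron of *Trpm1*, the channel of ON bipolar cells (102 and 122 in blue cones against 3.12 and 5.42 in rods, log2 fold change -4.46 with a standard error of 0.29, adjusted p = 1.38e-07). The 24 regions lay at 7 of the 16 genes, and 11 of the 24 were among the 20 regions of *Lhx4* alone. Summed over the 154 regions, normalized counts were 3867 and 4133 in rods and 4034 and 4108 in blue cones, so that the summed levels overlapped. Of 16 bipolar cell marker genes tested for expression, 6 were higher in blue cones and 1 in rods, beside 11.3% and 4.63% of all genes tested. Regions higher in blue cones numbered 8 of 70 (11.4%) for markers of amacrine, horizontal and ganglion cells and 5 of 84 (5.95%) for Müller glia and astrocytes. For pigment epithelium, vessels and immune cells they numbered 6 of 62 (9.68%). In these 3 lists 0 regions were higher in rods. Summed counts were 2652 and 2532 in rods against 2368 and 2419 in blue cones for the first of these lists, and 1902 and 2039.7 against 2397 and 2333 for the glial list. The first was lower and the second higher in both blue cone libraries, without overlap. The list of pigment epithelium, vessels and immune cells had 1144 and 1235 in rods and 1587 and 1499.5 in blue cones. The part of other cell types in the calls was not tested.

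Apart from the intron of the targeted gene *Nrl*, the largest TSS-distal changes to rods were in introns of *Kcnj14*, *Racgap1*, *Rabgap1l*, *Med1*, *Anks1* and *Ric8b* and 68919 bp upstream of Gm51288. The region in *Kcnj14*, which encodes an inwardly rectifying potassium channel, had 364 and 366 in rods against 0 and 1.45 in blue cones, and its ratio of 505 had a 95% counting interval of 109 to 3252 because 2 reads were counted in blue cones. The region in *Med1*, a subunit of the Mediator complex, had 81.0 and 116 in rods against 0 and 0 in blue cones, at least 70.7-fold higher in rods. In *Anks1* the values were 333 and 369 in rods against 2.59 and 2.89 in blue cones (log2 fold change 6.56 with a standard error of 0.47, adjusted p = 1.38e-07). Among promoters the 4 largest changes to rods were those of *Gnat1*, *Pde6b*, *Tmem116* (92.7 and 115 in rods against 2.59 and 0 in blue cones, log2 fold change 5.78 with a standard error of 0.73, adjusted p = 0.000106) and *Hdc*, the histamine-forming enzyme (225 and 295 in rods against 7.77 and 5.78 in blue cones, log2 fold change 5.07 with a standard error of 0.71, adjusted p = 0.000388).

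Among regions higher in blue cones, the largest TSS-distal change was 15499 bp upstream of *Plaat1*, a phospholipase gene, with 470.1 and 491 in blue cones against 0 and 2.71 in rods (log2 fold change -7.97 with a standard error of 0.40, adjusted p = 1.54e-09). A region in an intron of *Prickle2*, a gene of planar cell polarity, had 339 and 304 in blue cones against 0.779 and 0 in rods, which is 1 read in rods, and its ratio of 826 had a 95% counting interval of 156 to 34584. No read was counted in rods at regions 157476 bp upstream of the homeobox gene *Irx1* (chr13:72121100-72121299), where blue cones had 194 and 215 and were at least 188-fold higher, and in an intron of *Lrmda* (chr14:22710522-22710721, at least 149-fold). Regions near *Nmur2* (504 and 396 in blue cones against 4.67 and 0 in rods) and in an intron of *Elmo1* (346 and 339.7 in blue cones against 0 and 2.71 in rods) were likewise nearly empty in rods. The promoter with the largest change was that of *Zfp608*, a zinc finger gene, at chr18:54992547-54992746, with 324 and 283 in blue cones against 0 and 0 in rods, at least 279-fold higher in blue cones. It was followed by the promoters of Gm29243, *Lrtm1* (111 and 149.6 in blue cones against 1.56 and 0 in rods) and *Adrb1*, the beta-1 adrenergic receptor (355 and 349.8 in blue cones against 2.34 and 4.74 in rods, log2 fold change -6.33 with a standard error of 0.26, adjusted p = 2.64e-10).

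Called TSS-distal regions were concentrated at some genes. *Zfp608* had 46 of 71 TSS-distal regions higher in blue cones and 0 higher in rods, spread over chr18:54827988-55638963, and their summed normalized counts were 69.3 and 66.4 in rods compared with 2448 and 2681 in blue cones. The other genes with the most regions higher in blue cones were *Nrxn3*, a presynaptic adhesion gene (25 of 61), *Cdh13*, an anchored cadherin (23 of 48), the long noncoding RNA gene Gm31447 (23 of 42), *Kcnma1*, which encodes a calcium-activated potassium channel (21 of 30), *Prickle2* (21 of 30), *Gramd3* (21 of 43) and *Diras2*, a small GTPase gene (20 of 26). At *Kcnma1* the summed counts of the 21 regions were 31.2 and 21 in rods compared with 1018 and 1101 in blue cones, and at *Diras2* those of the 20 regions were 49.8 and 43.4 in rods compared with 1243 and 1362 in blue cones. Clusters of regions higher in rods, with 1417 TSS-distal calls in all against 8368 for blue cones, were smaller. They included those at *St3gal1*, a sialyltransferase gene (8 of 14, summed counts 921 and 918 in rods compared with 63.5 and 91.1 in blue cones), *Pak7*, a kinase gene (7 of 14), *Dmap1* (7 of 14), *Esrrb* (6 of 24), 4930505M18Rik (6 of 45), *Wapl*, a cohesin release factor (5 of 6), and *Ric8b* (5 of 9). The largest of the 7 regions assigned to *Dmap1* by distance lay in an intron of *Eri3* (81.0 and 65.1 in rods against 2.59 and 2.89 in blue cones). More than 5 called TSS-distal regions were found at 259 genes for blue cones and at 6 genes for rods. Whether the clusters differ in size beyond the number of calls in each direction was not tested.

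The sequences of the called regions differed in the motifs they held. Shares are of TSS-distal regions with at least 1 match on either strand, counted without regard to overlap between motifs, and no test was made. The K50 core TAATCC was found in 40.5% of regions higher in rods, 28.1% of those higher in blue cones and 24.6% of all 91957. The half-site AGGTCA was found in 34.4%, 16.2% and 16.9%. The extended form TCAAGGTCA, the type of site bound by ESRRB, contains AGGTCA and was found in 5.15% (73 of 1417), 0.43% (36 of 8368) and 0.725%. The shares of TAATCC and AGGTCA in regions higher in rods were above those over all regions, while in regions higher in blue cones the first was above and the second below. The MAF half-site TGCTGAC was found in 9.39%, 4.55% and 4.62% in the same order.

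Q50 cores showed the reverse. TAATTA was found in 3.25% of regions higher in rods, 9.95% of those higher in blue cones and 5.83% of all, and TAATTG in 3.95%, 11.7% and 7.6%. The E-box CAGATG was less frequent in regions higher in rods (15.5%) than in those higher in blue cones (24.6%) and in all (25.1%), and so was the E-box CAGCTG (14.2%, 19.5% and 19.2%). The CTCF core AGGGGGC was found in 2.26%, 5.74% and 5.96%. The MEF2 site CTAAAAATA (0.988%, 1.23% and 0.981%), the AP-1 site TGANTCA (6.85%, 8.62% and 7.71%), the RFX half-site GTTGCCA (2.33%, 3.04% and 2.91%) and the ONECUT core ATTGAT (3.39%, 6.21% and 5.33%) differed less in percentage points. Median GC content was 50% in regions higher in rods and 49% in those higher in blue cones.

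**Figure D4:**
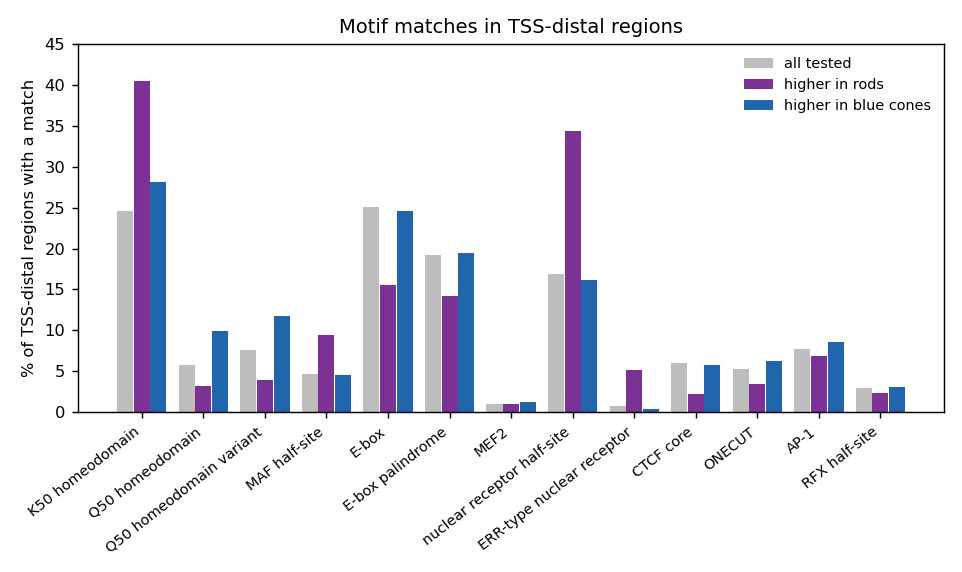
Share of TSS-distal regions with at least 1 match to each of 13 motifs, in percent, for all 91957 tested regions (grey), the 1417 higher in rods (purple) and the 8368 higher in blue cones (blue). The K50 core and the nuclear receptor half-site stand out in regions higher in rods (40.5% and 34.4%).

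Read from the motif side, 2.54% of the regions with TAATCC were higher in rods against 1.22% of those without. The share higher in rods was 1.22% with 0 copies of TAATCC, 2.42% with 1 copy, 3.10% with 2 and 4.69% (13 of 277 regions) with 3 or more. With both TAATCC and AGGTCA it was 4.87% (202 of 4148), with TAATCC alone 2.01%, with AGGTCA alone 2.50% and with neither 0.963%. Of 667 regions with TCAAGGTCA, 10.9% were higher in rods, and their median log2 fold change was 0.81 against -0.34 over all TSS-distal regions. At promoters, 31 of the 170 regions higher in rods held TAATCC (18.2%), beside 5.24% of those higher in blue cones and 5.85% of all promoter regions.

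Expression of the genes nearest to these regions was measured by RNA-seq in 3 rod and 3 blue cone libraries of the same genotypes, which the calls of regions did not use. By the same limma test, 650 of 14024 genes were expressed at a higher level in rods (4.63%) and 1581 in blue cones (11.3%). Both assays thus called more features higher in blue cones. Among 13120 genes that were tested and had a tested region, 812 had regions called higher in rods only, and 207 of these were higher in rods in RNA (25.5%) and 24 in blue cones (2.96%). Of 2257 genes with regions called higher in blue cones only, 732 were higher in blue cones in RNA (32.4%) and 46 in rods (2.04%). Of 9941 genes without a called region, 349 were higher in rods (3.51%) and 750 in blue cones (7.54%).

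These shares were larger where more regions were called. Of genes with 1, with 2 or 3, and with 4 or more regions higher in rods, 17.1% (106 of 620), 47.9% (79 of 165) and 81.5% (22 of 27) were expressed at a higher level in rods. Of the corresponding genes for blue cones, 24.1% (297 of 1230), 34.6% (220 of 635) and 54.8% (215 of 392) were higher in blue cones. A called promoter region went with a change in RNA of the same direction at 55 of 138 genes for rods (39.9%) and at 378 of 634 genes for blue cones (59.6%), and with one of the opposite direction at 3 and 6 genes. Seen from expression, 223 of 618 genes higher in rods (36.1%) had a region called in the same direction, beside 7.03% of all genes. Of 1520 genes higher in blue cones, 746 (49.1%) had one, beside 18% of all genes.

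**Figure D5:**
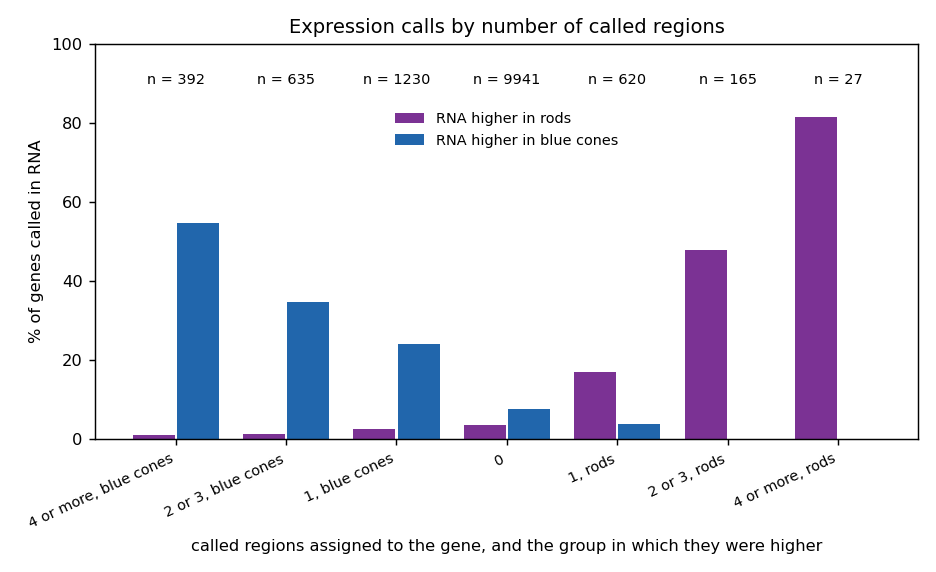
Share of genes called higher in rods (purple) or in blue cones (blue) by RNA-seq, in percent, grouped by the number of called regions assigned to the gene and the group in which those regions were higher. The share rises from 17.1% to 81.5% with the number of regions higher in rods and from 24.1% to 54.8% with the number higher in blue cones.

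Among genes called in both assays, those with large changes in expression to rods included *Abca13*, *Fam160a1*, *Cnga1*, *Sh2d1a*, *Kcnj14*, *Nr2e3* and *Gnat1*. Expression of *Gnat1* was 498719 ± 84856 in rods compared with 1042 ± 231 in blue cones (SD, n = 3; log2 fold change 8.91 with a standard error of 0.20, adjusted p = 6.9e-15), and 4 of its 7 regions were higher in rods. *Kcnj14* had 5205 ± 447 in rods compared with 9.79 ± 4.29 in blue cones (log2 fold change 9.0, adjusted p = 2.86e-13), and both of its 2 regions were higher in rods. *Abca13* had 1362 ± 74.4 in rods compared with 1.25 ± 1.15 in blue cones, and its 2 called regions were weak, the larger with 12.5 and 18.3 in rods against 0 and 0 in blue cones. This call was lost by DESeq2 (adjusted p = 0.076) and without any 1 of the 4 libraries (adjusted p up to 0.580 over the alternatives).

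To blue cones, the largest changes in expression were those of *Tnc*, *Pik3ap1*, *Wscd2*, *Ffar4*, *Wwc1*, *Ece1*, *Abcb4* and *Smpdl3a*. *Tnc*, which encodes the matrix protein tenascin C, had 3.04 ± 1.92 in rods compared with 1756 ± 198 in blue cones (SD, n = 3; log2 fold change -8.89 with a standard error of 0.41, adjusted p = 6.32e-11), while 1 of its 10 regions was called, with no read in rods and 24.6 and 31.8 in blue cones. *Wscd2* had 4.85 ± 8.4 in rods compared with 838 ± 102 in blue cones (log2 fold change -8.38 with a standard error of 0.81, adjusted p = 9.35e-07), and 11 of its 13 regions were higher in blue cones. *Ece1*, an endothelin-converting enzyme, had 64.1 ± 10.2 in rods compared with 15929.9 ± 436 in blue cones (log2 fold change -7.95 with a standard error of 0.13, adjusted p = 2.7e-16), with 9 of 21 regions called. *Zfp608*, at the centre of the largest cluster, had 6.71 ± 6.68 in rods compared with 492 ± 56.5 in blue cones (log2 fold change -6.44 with a standard error of 0.44, adjusted p = 2.09e-08). *Opn1sw* stood above these in absolute level, with 7477 ± 102 in rods compared with 1.22e+06 ± 101242 in blue cones (log2 fold change -7.35 with a standard error of 0.64, adjusted p = 3.73e-07). The regions of *Pik3ap1*, *Ffar4* and *Smpdl3a* with the largest change were low (at most 42.6 normalized counts), and these 3 calls were lost without blue cone replicate 1 or 2 (adjusted p up to 1 over the alternatives).

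Green cones gave median values between the groups at regions of both kinds. In the 1587 regions higher in rods the median was 40.0 and 31.0 in the 2 green cone libraries, above blue cones and below rods, and in the 9284 higher in blue cones it was 26.5 and 28.2, near the blue cone level. At the *Gnat1* promoter green cones had 222 and 138, and at the *Nrl* intron, where blue cones had no read, 234 and 169. At the *Zfp608* promoter they had 183 and 199, and at *Slc24a2* 189 and 192. The fitted value of green cones lay nearer to rods than to blue cones at 635 of the 1587 regions (40.0%) and at 673 of the 9284 (7.25%). Among the 97577 regions not called it did so at 29122 (29.8%). The calls had used the rod and blue cone libraries, and no test was made of these shares. Bipolar cells had medians of 11.7 to 14.6 in the regions higher in rods and 35.8 to 43.1 in those higher in blue cones, beside 23.4 to 35.1 in regions that were not called.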

How the data were processed

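ATAC-seq was compared between 2 rod and 2 blue cone libraries, and RNA-seq between 3 and 3. The authors aligned ATAC-seq reads to GRCm38/mm10 (Bowtie2), removed duplicates (Picard), restricted fragments to nucleosome-free lengths and used MACS2 to call peaks in each library. RNA-seq reads were aligned with STAR and counted with HTSeq. The submitters' processing notes list Bowtie2 2.2.5, MACS2 2.1.1 and STAR 2.7.0d. The deposited signal values are counts per 200-bp region or gene that the authors divided by 1 size factor per library. All 1212862 region values above 0 were whole reads after that factor was undone (within 0.01). The deposited peak files give the fold enrichment and the -log10 of the q value that MACS2 computed for the authors. Starts were taken to count from 0.

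limma 3.58.1 fitted log2(normalized count + 1) of 12 ATAC-seq or 15 RNA-seq libraries, with 1 level for each population. Its treat test against a log2 fold change of 1 had a trended prior and Benjamini-Hochberg adjustment. Regions passing edgeR's filterByExpr were tested. Adding 1 understates changes of low regions. On simulated region counts limma called 10 of 100 regions changed 4-fold, 84 of 100 changed 16-fold and 0 unchanged ones. RefSeq (GRCm38.p6) supplied TSS, gene structure and sequence. Of 20879 gene names of regions, 19125 matched the expression table by symbol or synonym, and 23 tested genes with damaged names there were not. Folds against an empty group use a floor of 3 reads over the group. Intervals (exact binomial, 95%) and floors cover counting error only. Samples were grouped by their labels.

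The rule for named regions took those of *Nrl*, the 8 TSS-distal and 4 promoter regions of largest change in each direction, 2 regions per gene of the rod and cone lists, the 8 genes with most called TSS-distal regions in each direction (ties by fewer tested regions) and the 8 with the largest change in expression. Named regions of other lists were among their 4 largest. RNA values of *Arr3*, *Rorb*, *Samd7*, *Isl2*, *Opn1sw*, *Sag*, *Prph2*, *Pde6g*, *Reep6* and *Rom1* were chosen after they were seen. Members, lists and motifs were chosen with earlier results of these data known. Alternatives changed the tool, pseudocount, filter, scaling, GC content, replicate number and libraries. Peaks of other populations were not used here, and 1 item that the rule named is not reported here.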

Additional observations from a re-analysis of the deposited data

How the results depend on the processing

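The number of called regions depended on the test. It was 10871 by limma, 19112 by edgeR (3529 for rods, 15583 for blue cones) and 37557 (14908 and 22649) without a minimum fold. With a pseudocount of 8 it was 5962 (4326 higher in blue cones). With the 4 libraries alone it was 0, with or without the replicate block. Of the 1587 and 9284 calls of limma, edgeR made 1584 and 9283 and DESeq2 1170 and 6747. Scaling mattered for rods: 961 regions were higher in rods with library totals and 916 with factors from promoters, which moved the median log2 fold change of all regions from -0.20 to -0.45 and -0.46. Centring within GC bins gave 6425 higher in rods and 5014 in blue cones, since it also removed the median of each library (median 0.41). Bins that kept it, chosen after seeing the data, gave 1966 and 10175, and only regions in a peak of the 4 libraries, likewise added, 1812 and 8120. Leaving out 1 library gave 7091 to 8358 calls in all, from 635 without rod replicate 1 to 1236 higher in rods, 653 without rod replicate 2 and 903 without blue cone replicate 1, and 6188 to 7705 higher in blue cones. No called region turned direction under any alternative. Of 68 named regions that were called, 56 kept their call under every alternative other than the fits of 4 libraries, 68 under edgeR and 65 under DESeq2. Among 78 named regions, the promoter of *Thrb* (not called) reversed to -0.28 with GC bins that kept the median. Genes called in RNA were 2231, and 8068 without a minimum fold (3810 and 4258). Replicate numbers are shared between groups but do not pair the libraries (correlation of deviations across regions -0.003), and with the replicate block on 12 libraries 1569 and 9089 regions were called. Peak overlaps and the split of promoters at 500 bp moved by less than 1.5 times. Blue cone replicate 1 had the fewest reads of the 4, and the small number of libraries limits regions with few reads.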

Other observations

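At 2 of the genes named here the called regions and expression went in opposite directions. *Rorb*, a nuclear receptor of rods and cones, was expressed at 47901 ± 6609.5 in rods compared with 15553 ± 2510.1 in blue cones (normalized counts, SD, n = 3; log2 fold change 1.63 with a standard error of 0.18, adjusted p = 0.0096, and adjusted p = 0.0503 without rod replicate 2), whereas 6 of its 36 regions were higher in blue cones and 0 in rods. *Samd7*, a Polycomb-associated repressor of rods, had 7939 ± 412 in rods compared with 1818 ± 156 in blue cones (log2 fold change 2.13 with a standard error of 0.32, adjusted p = 0.0102), and its 1 called region was higher in blue cones, a call lost with a pseudocount of 8 (adjusted p = 0.112) and with GC bins (adjusted p = 0.233). At other genes the comparison was mixed. *Isl2*, a LIM homeobox gene, had 1.37 ± 1.19 in rods compared with 21.2 ± 5.41 in blue cones (log2 fold change -3.37 with a standard error of 0.52, adjusted p = 0.00143), with its promoter higher in blue cones (282 and 276 in blue cones against 45.2 and 46.8 in rods) and a region 5210 bp downstream of the TSS higher in rods (98.1 and 117 in rods against 14.2 and 9.39 in blue cones). Both calls at *Isl2* were lost without rod replicate 1 or 2 or blue cone replicate 2 (adjusted p up to 0.0951 for the promoter and 0.224 for the other region over the alternatives), and the RNA call was lost by DESeq2 (adjusted p = 0.134). Expression was not called at *Dmap1*, which carried 7 regions higher in rods, with 643 ± 42.8 in rods compared with 536 ± 18.9 in blue cones (log2 fold change 0.26 with a standard error of 0.13, adjusted p = 1). Regions were assigned by the nearest TSS, and assignment to another gene was not tested.

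The calls were spread unevenly over chromosomes. The share of tested regions higher in blue cones ran from 4.42% on chromosome X to 12.4% on chromosome 18 among chromosomes with more than 1000 tested regions, and the share higher in rods from 0.929% on chromosome 18 to 2.02% on chromosome 12. In 4 classes of rising GC content the share higher in blue cones was 8.96%, 10.1%, 8.69% and 6.44%, and the share higher in rods was 1.15%, 1.83%, 1.93% and 0.936%, so that both were lowest in the class of highest GC content and highest in a middle class.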
